A study of Mus musculus with 7 samples.

Results

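The BCL2 family decides at the mitochondrion whether a cell lives or dies, and 10 of its genes were followed here in RNA of mouse spleens. The genes were Bcl2, Bcl2l1, Mcl1, Bcl2l11, Bax, Bak1, Bid, Bad, Bbc3 and Pmaip1. They were chosen by name, and all 10 were found among the 24062 genes of the deposited table. All 10 were also among the 15188 genes that passed the filter on low counts. RNA sequencing had been done on total RNA of whole spleens from mice aged 2 to 3 months. The mutant group held 3 enlarged spleens, labelled Brca1∆/∆, with the genotype Vav1-iCre;Brca1F22-24/F22-24. Vav1-iCre is a Cre recombinase under the Vav1 promoter, which is active mainly in blood cells, and both copies of Brca1 carry the allele named F22-24. The wild-type group held 4 spleens labelled Brca1+/+ with C57BL6 as genotype. Spleen cells keep the unrecombined allele if the Vav1 promoter was never active in them or in the cells they descend from. Counts per gene do not show how many cells recombined it. Recombinase, allele and spleen enlargement go together in the mutant group, so their effects cannot be told apart, and no strain is named for the mutants. The question open to these data is how the genes differ between mutant and wild-type spleen.

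Proteins of this family work by binding each other. Bcl2, Bcl2l1 (Bcl-xL) and Mcl1 keep cells alive by holding death-promoting relatives. Bax and Bak1 are the effectors that open pores in the outer mitochondrial membrane and release cytochrome c. Bcl2l11 (Bim), Bid, Bad, Bbc3 (Puma) and Pmaip1 (Noxa) are the BH3-only proteins, which report stress by blocking the survival proteins or by activating the effectors. Blood cells are known to depend on different survival members. Bcl2 serves mature lymphocytes, Bcl2l1 serves maturing red cells and CD4 CD8 double-positive thymocytes, and Mcl1 serves nearly every blood lineage.

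The BH3 motif is the stretch that the family shares and through which death-promoting members bind the survival proteins. It was located in 9 members as a leucine followed after 3 residues by a glycine, alanine or serine and an aspartate. The residue after that aspartate had to be aspartate, glutamate, lysine, serine or glycine. Pmaip1 was not searched. The motif so defined had 1 match in each principal coding sequence of GENCODE M21 (GRCm38, which corresponds to mm10). The 24 bases that encode it are shown 5′ to 3′ to make the family visible at the level of the counted transcripts, with the codons of the leucine, of the small residue and of the aspartate in capitals.
Bcl2: CTCcgccgggctGGGGATgacttc
Bcl2l1: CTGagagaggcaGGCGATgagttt
Mcl1: CTGcggcgcgtgGGCGACggcgtg
Bax: CTCcggcgaattGGAGATgaactg
Bak1: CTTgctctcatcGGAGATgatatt
Bcl2l11: CTGcggcggatcGGAGACgagttc
Bid: CTCgcccaaataGGCGATgagatg
Bad: CTCcgaaggatgAGCGATgagttt
Bbc3: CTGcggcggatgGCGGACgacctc
Bad and Bbc3 carry a serine and an alanine codon where the other 7 have glycine. The motif lies at codon 94 of 236 in Bcl2, in exon 1 (chr1:106712578-106712601, minus strand), and at codon 90 of 233 in Bcl2l1, in exon 2 (chr2:152829700-152829723, minus strand). In Mcl1 it lies at codon 194 of 331 (chr3:95659436-95659459, plus strand), in Bax at codon 63 of 192 (chr7:45466000-45466023, minus strand) and in Bak1 at codon 76 of 209 (chr17:27022534-27022557, minus strand). In the BH3-only genes it lies at codon 150 of 196 in Bcl2l11 (chr2:128147150-128147173, plus strand), codon 90 of 195 in Bid (chr6:120897292-120897315, minus strand), codon 151 of 204 in Bad (chr19:6950792-6950815, plus strand) and codon 141 of 193 in Bbc3 (chr7:16313773-16313796, plus strand). Counts were summed per gene, so transcripts that include or skip this stretch are not separated.

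Libraries held 26889712 to 63612532 counts. The lowest count of a member in a library was 105, for Bbc3 in mutant 3. Levels are given as CPM, the count of a gene scaled to the depth of its library after TMM normalization, and differences are log2 fold changes, mutant minus wild type, with their standard error (SE) and a Benjamini-Hochberg p adjusted over all genes tested with edgeR. The labels number the spleens and do not state that each came from a separate animal, and p-values measure only the spread between these spleens. Wild-type 1 and 2 and mutant 1 stood apart in red cell genes, with 16 erythroid genes summing to 19280, 47010 and 28980 CPM against 3428 to 7610 CPM in the other 4 libraries. The targeted gene, Brca1, stood at 52.5 ± 13.3 CPM in the mutants and 38.7 ± 26.4 CPM in wild type (SD, n = 3 and 4), and totals per gene do not reveal whether single exons are missing. Genes that mark spleen were present in wild type and low in the mutants. Of 9 such genes 8 fell, and their summed level was 2169 to 2646 CPM in wild type against 44.6 to 217 CPM in mutant spleens. Apart from Marco, these genes also stand in other gene lists used here, so this sum repeats values that count in those lists.

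Of the 10 members, 4 rose and 3 fell in the mutant spleens. Over all genes tested, 57.4% were called, 28.5% higher and 28.9% lower, so a called gene is common in this comparison. Both effectors, Bax and Bak1, rose, as did Bid and Bad. The survival genes Bcl2 and Mcl1 fell, and so did Bcl2l11. Bcl2l1, Bbc3 and Pmaip1 did not pass, and in these 3 the groups overlapped. Among the called members 4 changed at least 2-fold (Bax, Bak1, Bcl2 and Mcl1), as did 40.3% of all genes tested. The groups did not overlap for the 7 called members, and the same held for 61.7% of all genes tested, 29.2% with the mutants higher and 32.6% with the mutants lower. The median log2 fold change was 0.24 over the members and -0.02 over all genes tested. Scaling by library size alone moved the median of all genes to -0.26, and the share of calls that were higher from 49.7% to 38.1%. The 7 called members kept their direction and their call under that scaling.

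**Figure D1:**
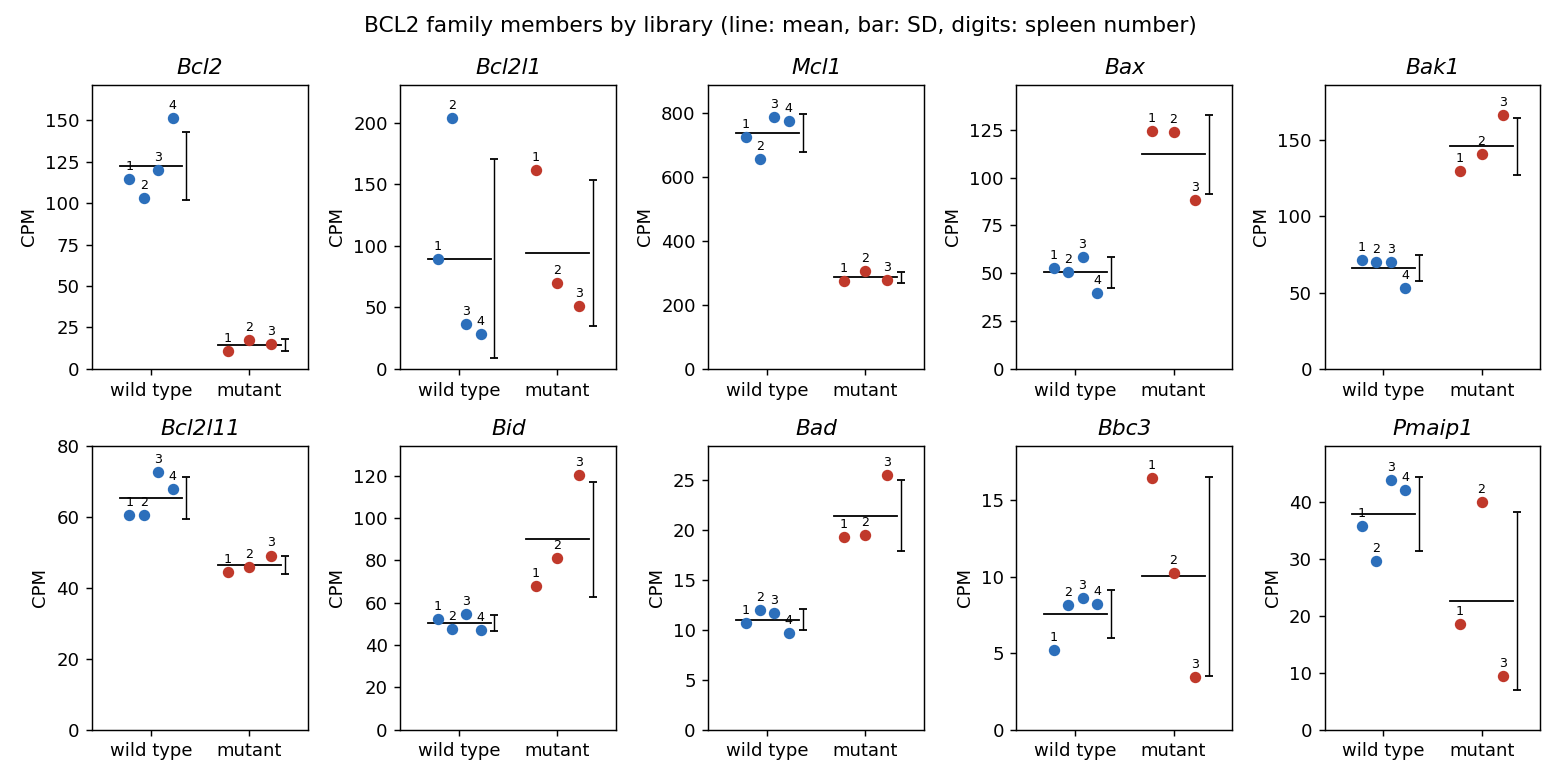
CPM of the 10 members in each library, on linear axes from 0, with wild type in blue and mutant in red. Lines are group means, bars are SD (n = 4 and 3) and digits are spleen numbers. Bcl2 stood at 103 to 151 CPM in wild type against 10.6 to 17.2 CPM in mutant spleens, while Bcl2l1 spread widely in both groups.

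Bcl2 showed the largest difference among the members. Bcl2 (chromosome 1, 106538178 to 106714290, minus strand, mm10) stood at 115, 103, 120 and 151 CPM in wild-type 1 to 4 and at 10.6, 17.2 and 15.2 CPM in mutants 1 to 3. The highest mutant was far below the lowest wild-type spleen. The group means were 122 ± 20.7 and 14.4 ± 3.39 CPM (SD, n = 4 and 3), 8.51-fold lower in the mutant. Its log2 fold change was -3.09 with an SE of 0.23 (adjusted p = 1.54e-04). Markers of mature B cells, which are known to express Bcl2, moved with it. All 12 listed B cell genes fell, and their summed level was 4864 to 6376 CPM in wild type against 45.1 to 272 CPM in mutant spleens. Of 6 genes of mature naive T cells, 4 fell, and their sum was 1042 to 1205 CPM in wild type against 521 to 669 CPM in mutant spleens. Of 12 genes of immature T cells, whose double-positive stage is known for little Bcl2, 11 rose and 1 fell, and their sum was 382 to 468 CPM in wild type against 1993 to 4020 CPM in mutant spleens. General T cell genes went the other way from Bcl2, with 9 of 12 higher and sums of 978 to 1302 CPM in wild type against 3079 to 6495 CPM in mutant spleens. Of 10 NK cell genes 8 fell and 1 rose, and of 9 dendritic cell genes 7 fell. The part of these cell types in the level of Bcl2 was not tested. In RNA of a whole organ, fewer cells of a type and less RNA per cell cannot be told apart.

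Within the mutants the order of Bcl2 and of the B cell sum was not the same. Mutant 2 was highest in both, with 17.2 CPM of Bcl2 and 272 CPM of B cell genes. Mutant 3 had the lowest B cell sum, at 45.1 CPM, and 15.2 CPM of Bcl2. Mutant 1 had a B cell sum of 142 CPM and the lowest Bcl2, at 10.6 CPM.

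**Figure D2:**
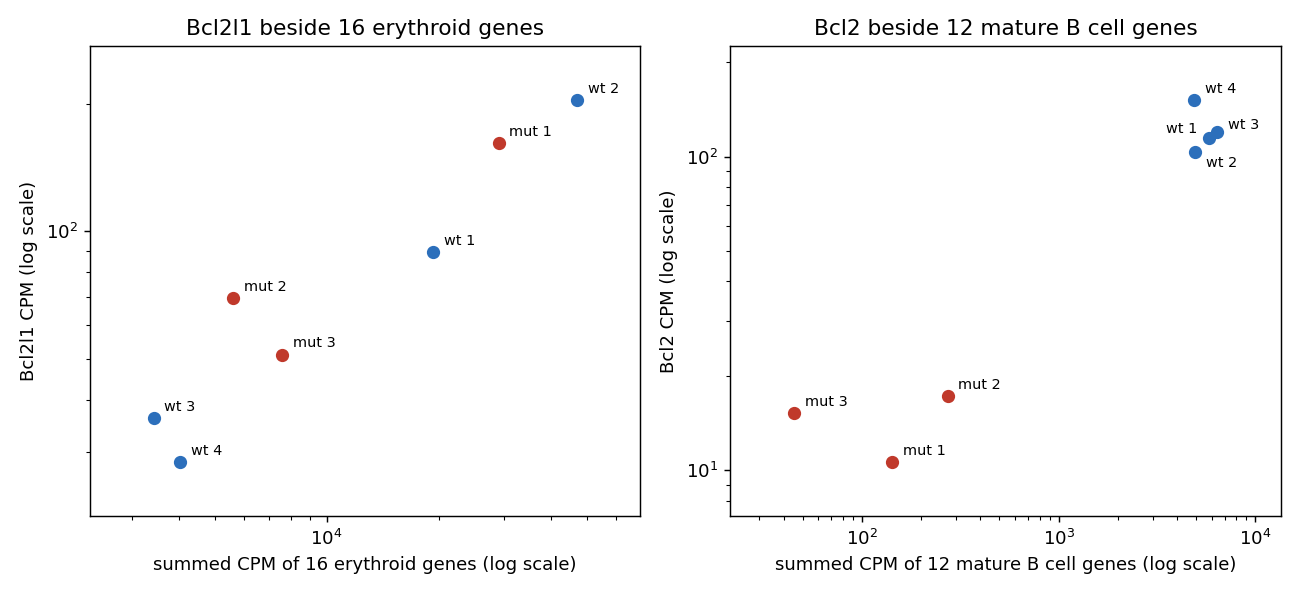
Each point is a library, wild type in blue and mutant in red, with both axes on a log scale in CPM. On the left, Bcl2l1 is plotted against the sum of 16 erythroid genes, where wild-type 2, mutant 1 and wild-type 1 are highest on both axes. On the right, Bcl2 is plotted against the sum of 12 mature B cell genes, where the 4 wild-type libraries are at or above 4864 CPM on the horizontal axis and the mutants are at or below 272 CPM.

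Mcl1, which encodes a short-lived survival protein that cells must keep making, fell to well under the wild-type level. Mcl1 (chromosome 3, 95658721 to 95663178, plus strand) stood at 726, 658, 789 and 777 CPM in wild type, while the mutants had 276, 306 and 277 CPM. Both groups were tight, with coefficients of variation of 8.07% and 6.05%. Its log2 difference was -1.36 (SE 0.14, adjusted p = 3.47e-04), or 2.57-fold lower. In spite of this fall, Mcl1 had the highest level per length of exon of all members in both groups.

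Bcl2l1 did not pass and differed more within the groups than between them. Bcl2l1 (chromosome 2, 152758732 to 152831728, minus strand) stood at 89.3, 204, 36.2 and 28.5 CPM in wild-type 1 to 4 and at 162, 69.6 and 51.1 CPM in mutants 1 to 3. The lowest and the highest of all 7 libraries were both wild type. In log2 terms the change was 0.07 (SE 0.72, adjusted p = 0.938), with a 95% interval from -1.59 to 1.74. Wild-type 2, mutant 1 and wild-type 1 were, in that order, the 3 highest libraries for both Bcl2l1 and the sum of 16 erythroid genes. The part of red cells in the level of Bcl2l1 was not tested. Without all 3 of these libraries, a setting chosen after seeing the data, Bcl2l1 passed with a log2 fold change of 0.92 (2 spleens a group, adjusted p = 0.0341, between 0.0341 and 0.965 in all its alternatives). The 3 libraries left out were also the highest for Bcl2l1 itself, so this setting removed its highest values and cannot test the groups. The erythroid sum was still higher in the mutants left, at 5605 and 7610 CPM against 3428 and 4037 CPM. So were the sums of 12 immature T cell genes (4020 and 2957 CPM against 468 and 449 CPM) and of 15 genes of dividing cells (8288 and 7291 CPM against 1063 and 1346 CPM). The part of any of these in that value was not tested. Without wild-type 1 and 2 alone, which keeps mutant 1 in the other group, the log2 fold change of Bcl2l1 was 1.54 and did not pass (adjusted p = 0.0613). Without mutant 1 it was -0.49, and its value was -0.23 when wild-type 4 was dropped and 0.88 when wild-type 2 was dropped, with the remaining single omissions between these. The overlapping gene Cox4i2 has counts of its own, and whether reads were counted by strand is not known here.

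The effectors Bax and Bak1 rose by similar amounts. Bax (chromosome 7, 45461695 to 45466898, minus strand) stood at 52.6, 50.9, 58.7 and 39.6 CPM in wild type, while the mutants had 124, 124 and 88.2 CPM. Each mutant was above each wild-type spleen, and the means were 50.4 ± 7.96 and 112 ± 20.7 CPM. The log2 fold change was 1.15 (SE 0.19, adjusted p = 0.00157). Bak1 (chromosome 17, 27019812 to 27028626, minus strand) stood at 71.3, 70.1, 69.8 and 53.3 CPM in wild type, while the mutants had 130, 141 and 167 CPM. Its log2 fold change was 1.139 (SE 0.16, adjusted p = 8.02e-04). Mutant 3 was the lowest mutant for Bax and the highest for Bak1, so the 2 effectors did not keep 1 order across the mutants. Their summed level was nearly level within the mutants, at 254 to 265 CPM, against 92.9 to 129 CPM in wild type. Bak1 shares part of its span with Ggnbp1, so a part of its reads may be shared.

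The BH3-only genes went different ways. Bid, which caspase 8 cuts to link death receptors to the mitochondrion, rose. Bid (chromosome 6, 120893119 to 120916820, minus strand) stood at 52.2, 47.4, 54.8 and 47.0 CPM in wild type, while the mutants had 68.1, 81.0 and 121 CPM. Its log2 difference was 0.84 (SE 0.20, adjusted p = 0.00904). Without wild-type 1 and 2 its size was nearly the same, at 0.82, and it did not pass (adjusted p = 0.0712, between 0.0015 and 0.0712 in all its alternatives), while without mutant 1 as well it passed at 1.00 (adjusted p = 0.02). Bad, which growth factor signals silence by phosphorylation, rose from 11.0 ± 1.06 to 21.5 ± 3.56 CPM. Bad (chromosome 19, 6941861 to 6951905, plus strand) stood at 10.7, 12.03, 11.7 and 9.71 CPM in wild type, while the mutants had 19.3, 19.5 and 25.6 CPM. Its log2 fold change was 0.96 (SE 0.18, adjusted p = 0.00308), and it overlaps Gpr137. Mutant 3 was the highest library for Bid, Bad and Bak1.

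Bcl2l11, which encodes the BH3-only protein that removes self-reactive and cytokine-deprived lymphocytes, showed the smallest change among the called members. Bcl2l11 (chromosome 2, 128126038 to 128162547, plus strand) stood at 60.6, 60.7, 72.7 and 67.9 CPM in wild type, while the mutants had 44.5, 45.8 and 49.1 CPM. The groups were apart and narrow, with coefficients of variation of 9.05% and 5.20%. In log2 terms the change was -0.50 (SE 0.13, adjusted p = 0.0114), or 1.41-fold lower.

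Bbc3 and Pmaip1 did not pass and varied most among the mutants. Bbc3 (chromosome 7, 16309583 to 16318334, plus strand) stood at 5.23, 8.11, 8.61 and 8.21 CPM in wild type, while mutants 1 to 3 had 16.4, 10.2 and 3.42 CPM. Mutants 1 and 2 were above all wild-type spleens and mutant 3 was below them all. The log2 fold change was 0.41 (SE 0.47, adjusted p = 0.486), with a 95% interval from -0.69 to 1.51. Without mutant 3 it passed at 0.82 (adjusted p = 0.044, between 0.044 and 0.927 in all its alternatives). It was -0.05 without mutant 1, 0.27 without wild-type 1 and -0.27 without mutant 1 and wild-type 1 and 2.

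Pmaip1 (chromosome 18, 66458604 to 66465558, plus strand) stood at 35.8, 29.7, 43.9 and 42.2 CPM in wild type, while the mutants had 18.6, 39.9 and 9.44 CPM. Mutant 2 lay within the wild-type range, and mutants 1 and 3 lay below it. Its log2 difference was -0.74 (SE 0.44, adjusted p = 0.182), with a 95% interval from -1.76 to 0.28. Without mutant 2 it passed at -1.45 (adjusted p = 0.0119, between 0.0119 and 0.42 in all its alternatives), and without mutant 3 it was -0.35. Mutant 3 was the lowest of all 7 libraries for both Bbc3 and Pmaip1. That library also had the lowest summed level of 11 neutrophil genes, at 22.1 CPM against 523 and 667 CPM in mutants 1 and 2 and 693 to 1779 CPM in wild type, and of 13 monocyte and macrophage genes, at 359 CPM against 910 to 3686 CPM elsewhere. Mutant 3 was also the lowest library for the sums of 12 mature B cell genes (45.1 CPM), 8 platelet genes (9.57 CPM) and 11 stroma and endothelium genes (354 CPM). It was not the lowest for erythroid or general T cell genes. Mutant 1, the highest library for Bbc3, had a lower neutrophil sum than every wild-type spleen. The part of any of these cells in the levels of Bbc3 and Pmaip1 was not tested.

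**Figure D3:**
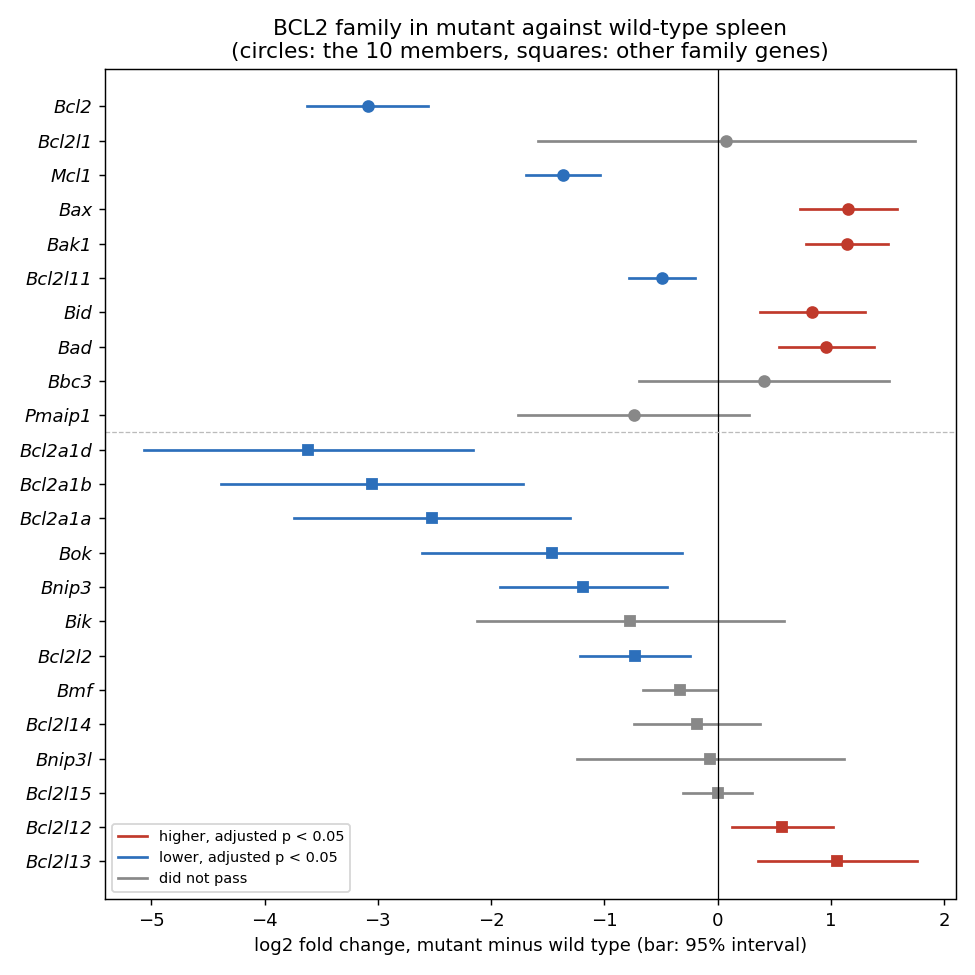
Log2 fold changes, mutant minus wild type, of the 10 members (circles) and 13 other tested genes of the family (squares), with 95% intervals as bars. Red genes were called higher, blue genes lower and grey genes did not pass. Bcl2 at -3.09 was the lowest of the members and the intervals of Bcl2l1, Bbc3 and Pmaip1 cross 0.

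Levels of different genes were set side by side per 1000 bases of exon, using the joined exons of GENCODE M21, which is not the annotation the counts were made with. In wild type, Mcl1 led with a mean of 216 CPM per 1000 bases and a range of 193 to 231. Bax, at 25.1 to 37.2, and Bak1, at 22.1 to 29.6, came next and overlapped. Bcl2l1 had rank 4 by its mean, but its range of 6.21 to 44.5 took in those of Bax and Bak1. Bid at 13.3 to 15.4, Pmaip1 at 10.9 to 16.1 and Bcl2 at 11.3 to 16.5 did not differ beyond their spread. Bcl2l11 followed at 7.55 to 9.06, and Bad at 3.79 to 4.70 and Bbc3 at 2.46 to 4.05 were lowest and overlapped. In the mutants Mcl1 was still first, at 80.7 to 89.6, with Bax at 56.0 to 78.7 and Bak1 at 53.9 to 69.2 close behind. Bcl2 went from rank 7 to rank 10, at 1.16 to 1.88 CPM per 1000 bases, and only Bbc3, at 1.61 to 7.73, overlapped it.

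Ratios of counts within a library do not depend on scaling between libraries, and here each was taken to Bcl2, so they share the fall of that gene. The log2 ratio of each of the 9 other members to Bcl2 was higher in every mutant than in every wild-type spleen. The same held for 82.7% of the other 15187 genes tested, so this separation follows from the fall of Bcl2 and is not particular to the members. Counts of Bax relative to Bcl2 had a mean log2 ratio of -1.28 ± 0.44 in wild type and 2.98 ± 0.52 in the mutants, a 19.1-fold difference. For Bak1 the difference was 19.0-fold, with -0.88 ± 0.43 and 3.36 ± 0.30. The ratio of Bcl2l1 to Bcl2 ranged from -2.41 to 0.98 in wild type and from 1.74 to 3.93 in the mutants, 10.9-fold apart by the means. Mcl1 to Bcl2, which both fell, differed least, by 3.34-fold. Bcl2l11 to Bcl2 differed by 6.11-fold. Since both fell, this shows unequal change and not a rise of Bcl2l11. No test was made of these ratios, because the members were chosen with earlier results known.

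**Figure D4:**
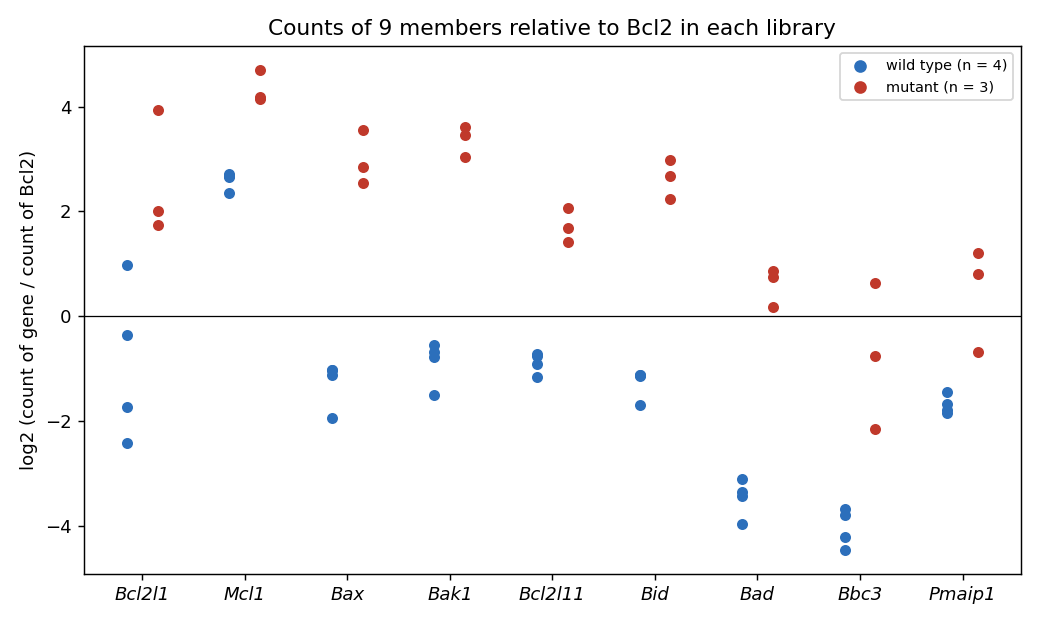
Log2 of the count of each of 9 members over the count of Bcl2 in each library, wild type in blue (n = 4) and mutant in red (n = 3). In each column the mutant points lie above the wild-type points, with the widest gap of the means for Bax (-1.28 and 2.98).

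The sum over the 3 survival genes was 929 to 966 CPM in wild type against 343 to 448 CPM in mutant spleens, and this sum is mostly Mcl1. The sum over the 5 BH3-only genes was 158 to 192 CPM in wild type against 167 to 208 CPM in mutant spleens, and these ranges overlapped. All 10 members together summed to 1218 to 1265 CPM in wild type against 806 to 869 CPM in mutant spleens.

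Promoter sequence is shown for Bcl2, Mcl1 and Bax, which changed at least 2-fold, as the 250 bases before the RefSeq start (GRCm38.p6) that is nearest to the 5′ end of the gene in the deposited coordinates. Bak1 changed at least 2-fold as well, but its window, which overlaps untranslated sequence of Bak1 and Ggnbp1, is not shown. A promoter was matched for 9 of the 10 members, and Pmaip1 was not searched. Matches on either strand are in capitals for the GC box (GGGCGG), an E box (CAGCTG), the CRE core (TGACGT), a site of the GATA family of factors (AGATAA), a RUNX site (TGTGGT), a FOXO site (GTAAACA), a STAT site (TTCNNNGAA) and the TATA box (TATAAA). Bcl2 and Mcl1 fell, and Bax rose. Their windows are chr1:106714291-106714540 on the minus strand, chr3:95658471-95658720 on the plus strand and chr7:45466899-45467148 on the minus strand.
Bcl2: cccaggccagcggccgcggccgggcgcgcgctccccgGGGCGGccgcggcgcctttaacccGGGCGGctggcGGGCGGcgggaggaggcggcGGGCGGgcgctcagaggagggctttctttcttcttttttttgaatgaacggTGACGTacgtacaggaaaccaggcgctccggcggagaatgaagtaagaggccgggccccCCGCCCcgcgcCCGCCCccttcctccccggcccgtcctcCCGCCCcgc
Mcl1: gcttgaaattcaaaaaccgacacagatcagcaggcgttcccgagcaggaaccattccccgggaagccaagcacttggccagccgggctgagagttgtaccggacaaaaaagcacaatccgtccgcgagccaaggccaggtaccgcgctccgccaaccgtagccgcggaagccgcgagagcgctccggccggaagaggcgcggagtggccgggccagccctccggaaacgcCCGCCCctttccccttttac
Bax: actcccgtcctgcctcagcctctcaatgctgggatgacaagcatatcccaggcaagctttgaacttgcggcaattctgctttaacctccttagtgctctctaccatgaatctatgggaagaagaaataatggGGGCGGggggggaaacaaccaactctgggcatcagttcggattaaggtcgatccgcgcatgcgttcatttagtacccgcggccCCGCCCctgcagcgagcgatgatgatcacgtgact
The Bcl2 window is 74.8% G and C, with 7 GC boxes and 1 CRE core. The Mcl1 window is 64.4% G and C with 1 GC box, and the Bax window is 54.0% G and C with 2 GC boxes, where the median over 32851 promoters of the same length is 52.4%. The GC box is in 32.7% of those promoters and the CRE core in 6.47%. Of the other members, Bcl2l11 has 1 FOXO match (3.17% of promoters hold it) and 3 GC boxes, Bak1 has 1 RUNX match (14.0%), Bid and Bad have 3 GC boxes each and Bbc3 has 5. The Bid window overlaps untranslated sequence of Bid. None of the 8 motifs was found in the Bcl2l1 window, which is 1 of 3 RefSeq entries for that gene. Bbc3 has 3 entries as well, and Bad and Bcl2l11 have 2 each, of which 1 per gene was scanned. A match is a description of the letters and not evidence of a bound site.

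Other genes of the family moved in both directions. Of 16 listed, 13 were tested, 2 rose and 6 fell, with a median log2 fold change of -0.73. Over all genes tested, 28.5% were called higher and 28.9% lower. Bcl2l2 (Bcl-w), a further survival gene, fell from 24.0 to 29.1 CPM in wild type to 11.3 to 19.3 CPM in the mutants (-0.73, SE 0.21, adjusted p = 0.0183). Bcl2a1b, of the NF-kappaB-induced survival gene A1, stood at 16.2 to 22.04 CPM in wild type, while the mutants had 3.75, 2.43 and 0.55 CPM (-3.05, SE 0.57, adjusted p = 0.00308). Bcl2a1a (-2.52, SE 0.52) and Bcl2a1d (-3.61, SE 0.63) fell too, and since the A1 genes are near-identical copies, their separate values are uncertain. Bcl2l13, an outer membrane protein known for a role in mitophagy, rose by 1.05 (SE 0.30, adjusted p = 0.019), but did not pass without wild-type 3 (adjusted p = 0.0507) or wild-type 4 (adjusted p = 0.0546, between 0.00277 and 0.0764 in all its alternatives). Bmf, a BH3-only gene, was lower in every mutant than in every wild-type spleen and did not pass (-0.34, SE 0.14, adjusted p = 0.0671).

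Of 15 genes that act at the mitochondrial membrane or after pore opening, all were tested, 7 rose and 3 fell, with a median of 0.70. The share called over all genes tested was 57.4%. Cycs, cytochrome c itself, rose from 90.3 to 97.6 CPM in wild type to 232 to 399 CPM in the mutants (1.79, SE 0.19, adjusted p = 3.72e-04). The channels Vdac1 and Vdac2, of which the second holds Bak1 at the membrane, rose by 1.86 (SE 0.22) and 1.27 (SE 0.17). Diablo, which releases caspases from their inhibitors, rose by 0.70 (SE 0.13), and Aifm1, a flavoprotein of the mitochondrial inner space, by 1.17 (SE 0.13). Casp9, the caspase that the apoptosome activates, fell from 49.3 to 53.9 CPM in wild type to 17.9 to 26.3 CPM in the mutants (-1.32, SE 0.17, adjusted p = 7.20e-04). The caspase and NF-kappaB regulators Birc2 (-1.13, SE 0.21) and Birc3 (-2.90, SE 0.20) fell. Apaf1, the scaffold of the apoptosome, did not pass (0.15, SE 0.16, adjusted p = 0.435).

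**Figure D5:**
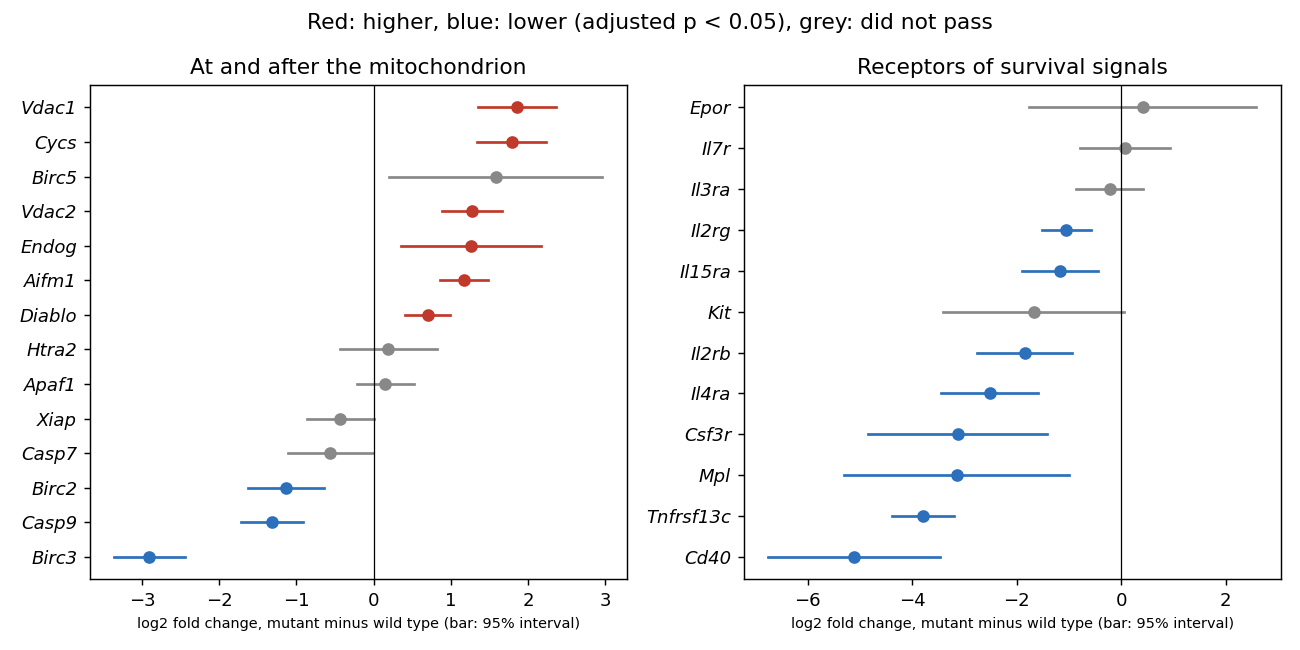
Log2 fold changes, mutant minus wild type, with 95% intervals, of 14 of the 15 listed genes that act at or after the mitochondrial pore (left, 1 gene is not reported here) and 12 receptors of survival signals (right). Cycs at 1.79 and Vdac1 at 1.86 are among the highest on the left, and Cd40 at -5.12 is the lowest on the right.

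Receptors that keep blood cells alive through these members were mostly lower. Of 12 receptors, 8 fell and the other 4 did not pass, with a median of -1.76, where 28.9% of all genes tested were called lower. Tnfrsf13c, the BAFF receptor of B cells, fell by 3.79 (SE 0.26) on the log2 scale, beside the fall of all 12 B cell genes. Cd40, a receptor of activated B and antigen-presenting cells, fell by 5.12 (SE 0.71). Il4ra (-2.52, SE 0.40) and Il2rg (-1.05, SE 0.20), the chain shared by several lymphocyte cytokine receptors, fell. Il7r, whose signal raises Bcl2 in T cells, stood at 69.7 to 193 CPM in mutant spleens against 98.1 to 180 CPM in wild type and did not pass (0.08, SE 0.37, adjusted p = 0.868). Epor, the erythropoietin receptor upstream of Bcl2l1, did not pass either (0.41, SE 0.94, adjusted p = 0.73).

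Among 24 genes that act on the members, 23 were tested, 9 rose and 2 fell, with a median of 0.11. The share called over all genes tested was 57.4%, with 28.5% higher and 28.9% lower. Trp53, the DNA damage response factor p53, rose by 0.93 (SE 0.14, adjusted p = 0.00119) on the log2 scale, with 231 to 248 CPM in mutant spleens against 106 to 138 CPM in wild type. Foxo1, a transcription factor of Bcl2l11, fell by 1.63 (SE 0.22, adjusted p = 8.02e-04), while Foxo3 did not pass (0.07, SE 0.57, adjusted p = 0.928). Myc, an oncogene that sensitises cells to death, rose from 73.7 to 102 CPM in wild type to 283 to 470 CPM in the mutants (2.15, SE 0.22). Stat5a, which acts on Bcl2l1, rose by 1.53 (SE 0.17), and Hspa9, a mitochondrial chaperone, by 1.47 (SE 0.16). Trp63, a relative of Trp53, fell but was near 0 throughout, at 0.59 to 1.26 CPM in wild type and at most 0.062 CPM in a mutant. Casp2 and Dynll1, a light chain that binds Bcl2l11, rose by 0.56 (SE 0.13) and 0.93 (SE 0.18). The Mcl1 ubiquitin ligases Huwe1 (0.07, SE 0.14, adjusted p = 0.706) and Fbxw7 (0.28, SE 0.12, adjusted p = 0.0747) and its deubiquitinase Usp9x (0.06, SE 0.19, adjusted p = 0.788) did not pass. Genes of dividing cells moved with the rises between the groups, and 12 of 15 rose, with sums of 7291 to 8288 CPM in mutant spleens against 1063 to 4752 CPM in wild type. In wild-type 1 to 4 the sums were 3064, 4752, 1063 and 1346 CPM. Among the wild-type spleens Bax and Bid were highest in wild-type 3, Bad in wild-type 2 and Bak1 in wild-type 1. The part of dividing cells in the levels of the members was not tested.

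Genes nearest in pattern to a member were found by the smallest Euclidean distance between log2 CPM values, centred on each gene's mean over the 7 libraries. For Bcl2 they were Hpse (distance 0.33), Klrb1f (0.37) and Igfbp3 (0.42). For Bcl2l1 they were Rfx2 (0.32), Ranbp10 (0.52) and Brpf3 (0.55). Ranbp10 stood at 254, 504, 97.9 and 82.9 CPM in wild type, while the mutants had 487, 136 and 142 CPM, with wild-type 2, mutant 1 and wild-type 1 highest. For Mcl1 they were Ankrd44 (0.17), Gm12942 (0.21) and Cflar (0.24), the last a brake on caspase 8. For Bcl2l11 they were Rab2b (0.17), Traf2 (0.17) and Ostf1 (0.17). The groups do not overlap in 61.7% of all genes tested, so genes near a member that separates them are common.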

How the data were processed

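The authors deposited raw counts per gene and a table of CPM, which per the file headers cover the same genes in 7 spleens. The build named is mm10 and the tools named are TopHat2 2.0.12, bcl2fastq 2.17.1.14, Subread 1.4.6, featureCounts and edgeR, per the submitters' processing notes, which here give no settings. The deposited CPM equal counts over TMM-scaled library sizes, to within a relative deviation of 4.94e-15. Gene starts in the deposited tables count from 0 and are given here from 1.

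Raw counts were tested with edgeR 4.0.16 in R 4.3.3 (quasi-likelihood, TMM, filterByExpr, group as the only term, 7 libraries), at a Benjamini-Hochberg adjusted p under 0.05 over all genes tested. The SE is the log2 fold change over the square root of F. Alternatives used limma 3.58.1 and DESeq2 1.42.0. The code was tested on simulated data. Members and lists were chosen with earlier results of these data known. Named genes are the members, called pathway genes with at least 2-fold change and the 3 genes nearest in pattern. Any other gene named was picked with its values known, as a contrast within its list. Every pair of libraries differed by more than sampling noise. 0 columns were left unused. Some results for single genes are not reported here.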

Additional observations from a re-analysis of the deposited data

Results flagged for a closer look

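In 4 of the 39 members and strongly changed pathway genes, 1 wild-type library stood apart from the other 3, where chance alone flags about 1 group in 20. Bak1 was lowest in wild-type 4, at 53.3 CPM against 69.8 to 71.3 CPM. Bbc3 was lowest in wild-type 1, at 5.23 CPM against 8.11 to 8.61 CPM. Bcl2a1a was highest in wild-type 4, at 4.69 CPM against 2.19 to 2.58 CPM, and Bok, an effector-like member of the family, was highest there too, at 11.5 CPM against 3.89 to 5.09 CPM. Without wild-type 4 the log2 fold change of Bak1 was 1.04 and that of Bok was -1.02, which then did not pass (adjusted p = 0.0722, between 0.00884 and 0.113 in all its alternatives). Bok passed without wild-type 2 and missed the threshold when any other single library was left out.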

How the results depend on the processing

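Each member was refitted under 20 alternatives, giving 200 values, of which 187 kept direction and side of the threshold. Bcl2, Mcl1, Bax, Bak1 and Bad passed under all 20. Bcl2l11 did not pass at an adjusted p under 0.01 (0.0114) or with the replicate block (-0.47, adjusted p = 0.0718), and Bid did not pass without wild-type 1 and 2, a setting with fewer samples. Same-numbered spleens did not all deviate together (correlations 0.042, -0.186 and 0.101). The labels do not state a pairing, and so few correlations cannot decide whether there was one. With the replicate block 4 members were called higher and 2 lower, 1 fewer than without it. Bcl2l1, which was not called, changed sign with library size alone (-0.0751), with the replicate block (-0.0362), and without mutant 1 (-0.491), wild-type 3 (-0.1967) or wild-type 4 (-0.2305), as did Bbc3 without mutant 1 (-0.052) and without mutant 1 and wild-type 1 and 2 (-0.2708), a setting chosen after seeing the data in which 5 members were called higher and 3 lower. Over single omissions Bcl2l1 ranged from -0.491 to 0.879 and Bbc3 from -0.052 to 0.8227. Leaving out 1 library in turn gave 4 to 5 members higher and 3 to 4 lower. At an adjusted p under 0.01, 2924 genes were called lower instead of 4390, since fewer pass a stricter threshold. The cause of the other changes was not tested. The lowest count of a member was 105, for Bbc3 in mutant 3, so depth limits that value most.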
